A study of Mus musculus with 12 samples.

Results

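The effect of PPARγ overexpression on undifferentiated muscle precursor cells was measured by RNA-seq, by comparing PPARγ/+ cells with control (WT) cells on day 0 (0d) over every gene of the expression table. The comparison takes 6 of the 12 libraries of the series by cell type and day, 3 of PPARγ/+_0d and 3 of WT_0d, and the other 6 libraries are the same cells on day 5 (5d) of muscle differentiation. C2C12 is a mouse line of myoblasts, the dividing precursors that leave the cell cycle and fuse into multinucleated myotubes. In PPARγ/+ cells the PPARγ coding sequence had been brought into the genome by a PiggyBac transposon vector named PB-IP, followed by selection in puromycin. The control libraries carry the name of the vector in their titles and are labelled wild type, and whether they were transfected and selected in the same way is not given in the sources used here. The medium of the cells contained LIF. The labels do not say whether the 3 libraries of a group came from separate clones or cultures, so each p-value below measures only the spread between these libraries.

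PPARγ is a nuclear receptor that binds fatty acids and their derivatives and the insulin-sensitizing glitazones. It pairs with a retinoid X receptor (RXR) on DNA at direct repeats of the sequence AGGTCA with 1 base between them, and it is the leading regulator of fat cell formation, where it turns on genes of fatty acid uptake, lipid storage and fat cell hormones. Myoblasts take their identity from a different set of regulators, the basic helix-loop-helix factors *Myf5*, *Myod1*, *Myog* and *Myf6*, which bind E-boxes such as CAGCTG in genes of the contractile apparatus.

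The 6 libraries held 16361995 to 22013120 fragments on genes, recovered from the FPKM values (fragments scaled to exon length and library size), and between 11391 and 11456 genes at 1 FPKM or more. The first principal component of the log2 values took 38.3% of the variance and separated the groups, and WT_0d replicate 2 stood apart from the other 5 on the second (at -36.3, where the others lay between -20.4 and 22.6). The 10 myoblast markers had summed levels of 275 to 484 FPKM in WT_0d and 140.0 to 187 FPKM in PPARγ/+_0d. All 10 passed the filter, which the WT_0d libraries alone can satisfy. All 10 had a negative log2 fold change (median -1.03), and 5 of the 10 fell. The 8 fat cell markers summed to 0.718 to 0.980 FPKM in WT_0d and 4.02 to 6.22 FPKM in PPARγ/+_0d, with *Adipoq* and *Fabp4* risen. None of the 7 endothelial markers passed the filter. Of the other marker lists *Lyz2* of the leukocyte list rose, and *Actg2* and *Des* of the smooth muscle list, *Map2* of the neural list and *Col1a1* of the fibroblast list fell. In bulk RNA fewer cells of a type and less RNA per cell cannot be told apart.

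The overexpressed gene itself was higher in every PPARγ/+_0d library. *Pparg* (ENSMUSG00000000440, chr6:115360951-115490399) stood at 7.56, 5.10 and 6.92 FPKM in the WT_0d libraries and 44.4, 28.0 and 46.4 FPKM in the PPARγ/+_0d libraries. The groups did not overlap, and the mean rose from 6.53 ± 1.27 to 39.6 ± 10.1 FPKM (SD, n = 3 in each group here and below), 6.07-fold, where folds are ratios of mean FPKM. In the fit over all genes, limma on log2(FPKM + 0.1), it had log2 fold change 2.57 ± 0.220 (SE), adjusted p = 0.00273, and no left-out library took away the call. The exact two-sided permutation test gave p = 0.1, the smallest value that 3 against 3 libraries allow. Fragments of the vector's PPARγ sequence and of the cell's own *Pparg* gene cannot be told apart in these values.

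Of 16254 genes tested, 361 were called by passing an adjusted p of 0.05 (Benjamini-Hochberg) together with a 2-fold difference (2.22%). Of these, 94 rose (0.578%) and 267 fell (1.64%), so falls made up 74% of the calls. By the adjusted p alone 376 genes were higher (2.31%) and 621 lower (3.82%). The median log2 fold change of all genes tested was 0.03, and the medians of the gene lists below stand beside this value. Among the called genes, 28 of the risen and 64 of the fallen changed 4-fold or more. The 2 groups did not overlap for any of the 361 called genes, which was also so for 28.6% of all genes tested. Many of the calls were of weakly expressed genes, with 98 below 1 FPKM in both groups and 79 at 10 FPKM or more in the higher group. Without PPARγ/+_0d replicate 2 the count was 192 and without PPARγ/+_0d replicate 3 it was 217, and 147 of the 361 stayed called whichever single library was left out.

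**Figure D1:**
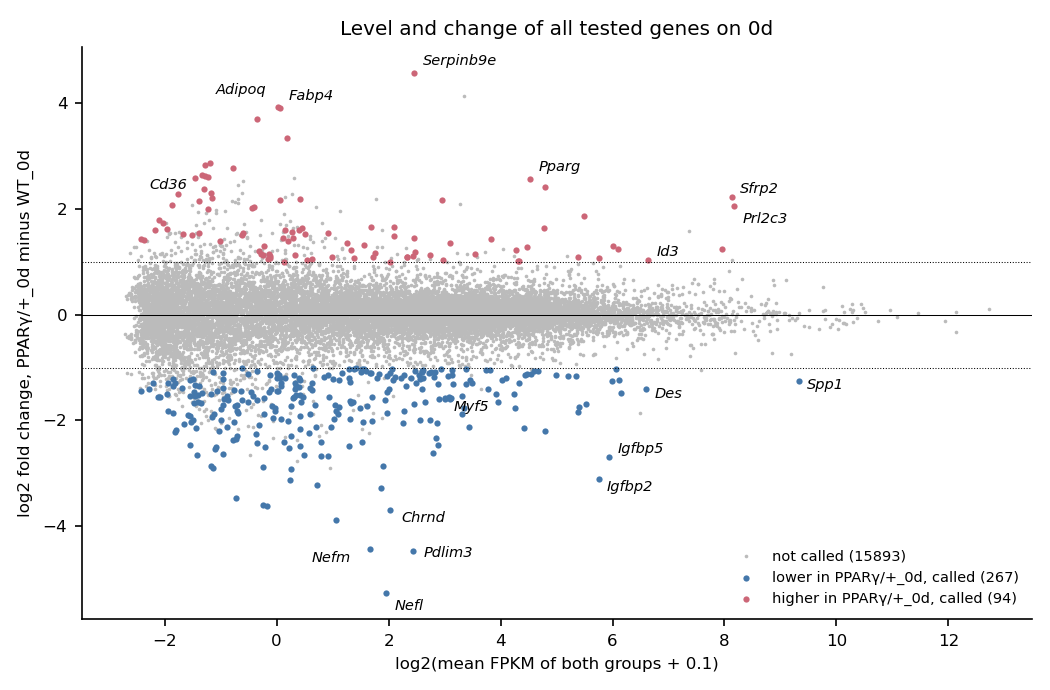
Each point is a gene tested on 0d, placed by its mean level over the 6 libraries (log2 of FPKM + 0.1, x axis) and its log2 fold change, PPARγ/+_0d minus WT_0d (y axis), with the 94 risen and 267 fallen genes in colour and named genes labelled. *Nefl*, *Pdlim3* and *Nefm* lie lowest, and *Serpinb9e*, *Adipoq*, *Fabp4* and *Pparg* are among the highest.

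Genes that PPARγ is known to drive in fat and muscle held the most rises of any gene list. Of 50 listed targets 37 were tested, 7 rose and none fell by the same rule, and 30 of the 37 had a positive log2 fold change, with a median of 0.27. By the adjusted p alone 1 target was lower, and 1 target was called as fallen without PPARγ/+_0d replicate 1. The 7 were *Adipoq*, *Fabp4*, *Cd36*, *Aqp7*, *Plin4*, *Nr1h3* and *Angptl4*. *Fabp4*, the fatty acid binding protein of fat cells, stood at 0.0345, 0.00883 and 0.0481 FPKM in the WT_0d libraries and 1.99, 1.59 and 2.0 FPKM in the PPARγ/+_0d libraries (log2 fold change 3.91 ± 0.226 (SE), adjusted p = 0.000746). *Adipoq*, the hormone adiponectin, stood at 0, 0.0287 and 0.0313 FPKM in the WT_0d libraries and 2.46, 1.06 and 1.96 FPKM in the PPARγ/+_0d libraries (log2 fold change 3.94 ± 0.332 (SE), adjusted p = 0.00273). Both were close to 0 in every control library, and neither group overlapped with the other. The whole WT_0d group held 2 fragments of *Adipoq* against 180 in PPARγ/+_0d, a ratio of 84.4 with an exact 95% counting interval of 23 to 702. Counting intervals cover counting error only.

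The other 5 risen targets act in fatty acid uptake, lipid storage and the control of lipid use. *Cd36*, a fatty acid transporter of the plasma membrane, stood at 0.0144, 0.0221 and 0.0120 FPKM in the WT_0d libraries and 0.662, 0.182 and 0.944 FPKM in the PPARγ/+_0d libraries (log2 fold change 2.39, adjusted p = 0.0346). *Aqp7*, the channel through which fat cells release glycerol, stood at 0, 0.0140 and 0.0153 FPKM in the WT_0d libraries and 0.290, 0.217 and 0.194 FPKM in the PPARγ/+_0d libraries (log2 fold change 1.6, adjusted p = 0.0248). Both were again near 0 in the controls, 4 and 2 fragments in all 3 libraries together, and the ratio for *Aqp7* was 22.5 (exact 95% counting interval 5.90 to 191). In contrast *Plin4*, a coat protein of lipid droplets, was already expressed in the controls and rose from 12.9 ± 2.52 to 31.4 ± 5.52 FPKM (log2 fold change 1.28, adjusted p = 0.00975). *Angptl4*, a secreted inhibitor of lipoprotein lipase, rose from 7.14 ± 1.20 to 15.9 ± 3.34 FPKM (log2 fold change 1.14, adjusted p = 0.0139), and *Nr1h3*, the sterol-sensing receptor LXRα, from 0.419 ± 0.116 to 1.03 ± 0.110 FPKM (log2 fold change 1.15, adjusted p = 0.0289). *Angptl4* lies outside the rule for named genes and was chosen after its values were seen. The fatty acid oxidation genes among the targets had no call, with 10 of 12 at a positive log2 fold change and a median of 0.22. Of other well-known targets, the lipoprotein lipase gene *Lpl* stood at 5.88 against 10.3 FPKM (WT_0d mean first, here and below, adjusted p = 0.0694), *Plin2* at 48.0 against 64.3 FPKM (adjusted p = 0.0683) and *Pdk4* at 23.4 against 28.2 FPKM (adjusted p = 0.576), and none of these passed the test. The count of 7 was 3 without PPARγ/+_0d replicate 3 and 4 without WT_0d replicate 1 or 2, whereas *Adipoq*, *Fabp4* and *Plin4* stayed called whichever library was left out. The call of *Aqp7* was lost whichever library was left out, and that of *Cd36* without any single library but PPARγ/+_0d replicate 2.

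**Figure D2:**
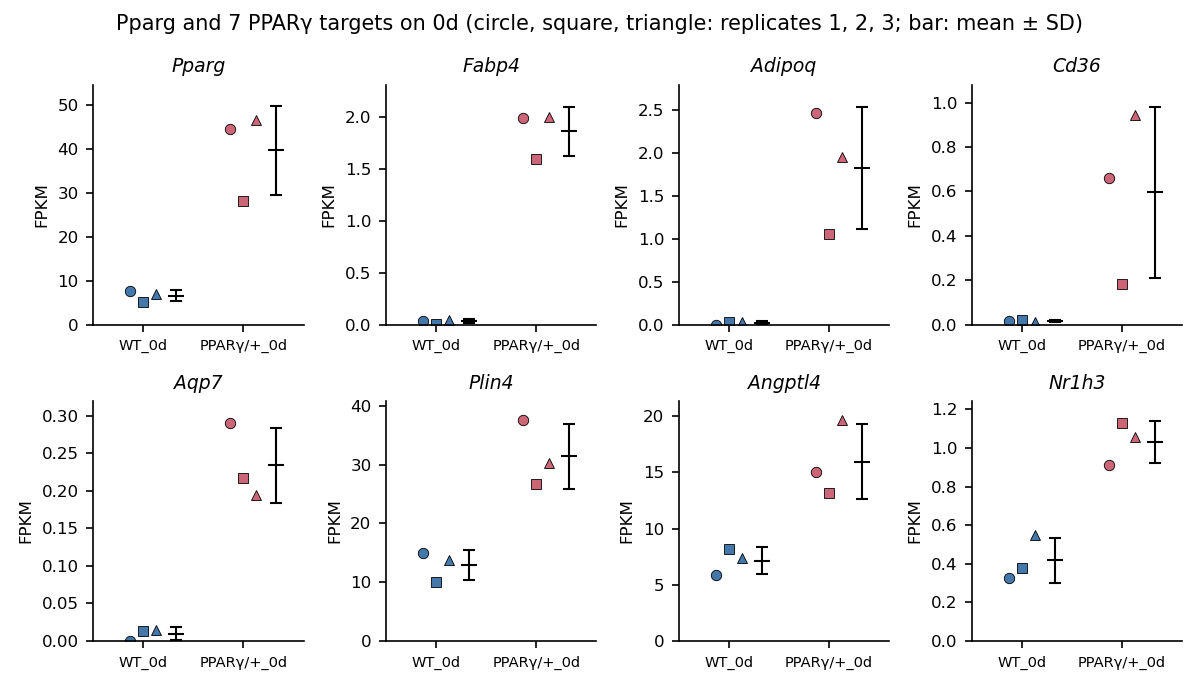
FPKM (y axis, linear) in each of the 6 libraries for *Pparg* and the 7 risen PPARγ targets, with WT_0d and PPARγ/+_0d along the x axis, a symbol for each replicate and a bar for the mean ± SD. The 3 PPARγ/+_0d libraries lie above the 3 WT_0d libraries for each gene, and for *Fabp4*, *Adipoq*, *Cd36* and *Aqp7* the WT_0d libraries lie at or close to 0.

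The promoters of the called genes were searched for the PPARγ-RXR element, because this is the DNA sequence the overexpressed factor is known to bind. The windows, from RefSeq on GRCm38.p6, ran from 250 bases before to 50 bases after the first listed start of a gene, and 10461 tested genes, 63 risen and 164 fallen genes had one. An AGGTCA, on either strand, was found in 12.1% of the windows of all tested genes, 22.2% of those of risen genes and 13.4% of those of fallen genes. The direct repeat of AGGTCA, any base and AGGTCA again, with up to 2 of its 12 fixed letters changed was found in 301 windows of all tested genes (2.88%), in 6 of risen genes (9.52%) and in 2 of fallen genes (1.22%). The 6 risen genes were *Aqp7*, *Cd36*, *Creb3l3*, *Serpinb9e*, *Serpinb9f* and *Serpinb9g*, and the last 3 are near-identical paralogs that share the same stretch and so are not separate instances. *Fabp4* and *Angptl4* had no window here, and the window of *Adipoq* did not hold the repeat. The calls of *Aqp7* and *Cd36* were easily lost when a library was left out, as given above. The whole windows of *Aqp7* (chr4:41048087-41048386 on the minus strand, repeat from 56 bases before the start) and *Cd36* (chr5:17835847-17836146 on the minus strand, 63 bases before the start) are shown first, since both are known PPARγ targets with a repeat near the start, followed by 33-base stretches around the repeat of *Creb3l3* (chr10:81092778-81092810, minus strand) and of the *Serpinb9* paralogs (chr13:33249380-33249412, chr13:33323834-33323866 and chr13:33484558-33484590, plus strand). Capitals mark the repeat, read 5′ to 3′ on the strand of the gene, where TGACCT is AGGTCA on the opposite strand. 
Aqp7: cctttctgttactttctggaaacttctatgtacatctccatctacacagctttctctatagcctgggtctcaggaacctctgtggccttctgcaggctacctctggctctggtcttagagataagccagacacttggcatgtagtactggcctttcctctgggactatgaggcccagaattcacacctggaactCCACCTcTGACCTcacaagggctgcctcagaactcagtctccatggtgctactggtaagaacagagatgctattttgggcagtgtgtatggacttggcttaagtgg
Cd36: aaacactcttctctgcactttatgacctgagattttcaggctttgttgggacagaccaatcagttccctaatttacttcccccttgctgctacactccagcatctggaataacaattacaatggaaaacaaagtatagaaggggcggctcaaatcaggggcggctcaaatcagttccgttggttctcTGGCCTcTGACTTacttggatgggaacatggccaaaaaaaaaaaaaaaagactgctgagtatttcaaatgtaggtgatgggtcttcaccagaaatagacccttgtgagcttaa
Creb3l3: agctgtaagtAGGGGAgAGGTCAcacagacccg
Serpinb9e: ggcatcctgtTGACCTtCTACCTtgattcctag
Serpinb9f: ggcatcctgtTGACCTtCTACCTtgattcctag
Serpinb9g: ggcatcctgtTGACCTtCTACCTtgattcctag
A match describes letters in a window and does not show that the factor binds there.

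The partners of PPARγ and the other fat cell regulators had few calls. Among 15 tested receptors and cofactors *Pparg* was the only gene that rose and *Ppargc1b*, a coactivator of mitochondrial gene expression, the only one that fell, from 1.40 ± 0.224 to 0.517 ± 0.136 FPKM (log2 fold change -1.29, adjusted p = 0.0203). *Rxra*, the gene of its DNA-binding partner, stood at 9.98 against 13.1 FPKM (adjusted p = 0.0984) and *Ppard* at 11.9 against 12.1 FPKM (adjusted p = 0.940). Of 13 adipogenic transcription factors none passed the test, and their median log2 fold change was 0.16. *Cebpa*, which works with PPARγ in fat cells, stood at 8.20 against 9.86 FPKM (adjusted p = 0.279). *Cebpb*, an early adipogenic factor, stood at 9.49 against 9.72 FPKM (adjusted p = 0.963). The call of *Ppargc1b* was lost without any of WT_0d replicates 2 and 3 and PPARγ/+_0d replicates 2 and 3.

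Of the myogenic regulators *Myf5* was called as fallen, and *Myod1* and *Myog* also had negative log2 fold changes but were not called. *Myf5*, the factor of the earliest myoblasts, stood at 11.3, 13.2 and 11.6 FPKM in the WT_0d libraries and 3.66, 4.25 and 3.96 FPKM in the PPARγ/+_0d libraries. The 3 PPARγ/+_0d libraries all lay below the 3 WT_0d libraries, a fall of 3.04-fold (log2 fold change -1.58 ± 0.0977 (SE), adjusted p = 0.000771) that held whichever library was left out. *Myod1*, the myoblast determination factor, stood at 13.3, 21.5 and 6.57 FPKM in the WT_0d libraries and 6.30, 5.03 and 9.68 FPKM in the PPARγ/+_0d libraries (log2 fold change -0.86, adjusted p = 0.268, exact two-sided permutation p = 0.2). *Myog*, which switches on terminal differentiation, stood at 2.69, 15.7 and 1.47 FPKM in the WT_0d libraries and 0.603, 1.13 and 3.22 FPKM in the PPARγ/+_0d libraries (log2 fold change -1.53, adjusted p = 0.344, exact two-sided permutation p = 0.3). Both overlapped between the groups, and *Myog* was highest in WT_0d replicate 2, whose level was above that of the other 5 libraries. Of 30 tested myogenic factors and partners 1 rose and 3 fell, with a median log2 fold change of 0.02. The rise was that of *Id3*, an inhibitor of the helix-loop-helix factors, from 65.2 ± 2.95 to 134 ± 7.85 FPKM (log2 fold change 1.04, adjusted p = 0.00115), and the other falls were those of the Notch-responsive repressors *Heyl*, from 0.459 ± 0.214 to 0.0315 ± 0.0185 FPKM (log2 fold change -2.03, adjusted p = 0.0175), and *Hes1*, from 11.7 ± 1.37 to 5.59 ± 0.619 FPKM (log2 fold change -1.05, adjusted p = 0.00557). Without WT_0d replicate 2 only *Myf5* of these falls kept its call.

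Genes of the contractile apparatus mostly had lower values in PPARγ/+_0d, although few passed the test one by one. Of 44 tested sarcomere genes 6 fell and none rose, and 40 had a negative log2 fold change, with a median of -0.78. The median depended on the filter. It was -0.49 over 68 genes with no filter (4 fell) and -0.55 over 64 genes with the filter over all 12 libraries (6 fell). With a filter of 1 FPKM it was -0.63 over 22 genes (5 fell). *Pdlim3*, a protein of the Z disc that binds α-actinin, stood at 9.41, 15.6 and 5.78 FPKM in the WT_0d libraries and 0.182, 0.316 and 0.580 FPKM in the PPARγ/+_0d libraries. Its fall of 28.6-fold (log2 fold change -4.48 ± 0.420 (SE), adjusted p = 0.00357) came without overlap between the groups. *Des*, the intermediate filament desmin that ties Z discs together, stood at 138, 180.1 and 108 FPKM in the WT_0d libraries and 45.5, 49.2 and 62.9 FPKM in the PPARγ/+_0d libraries (log2 fold change -1.41, adjusted p = 0.0103), and again every PPARγ/+_0d library lay below every WT_0d library. *Tnnt2* and *Tnnt1*, troponin T of heart and embryonic muscle and of slow muscle, fell from 4.62 ± 1.6 to 1.04 ± 0.321 FPKM (log2 fold change -2.03, adjusted p = 0.0110) and from 2.23 ± 1.78 to 0.255 ± 0.0676 FPKM (log2 fold change -2.48, adjusted p = 0.0286). *Xirp1* and *Xirp2*, actin-binding proteins of muscle cell junctions, fell from 2.56 ± 1.33 to 0.502 ± 0.287 FPKM and from 0.312 ± 0.155 to 0.0108 ± 0.0115 FPKM (adjusted p = 0.0357 and 0.0354).

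Some uncalled sarcomere genes had widely spread controls. The embryonic myosin *Myh3* stood at 0.706, 7.72 and 0.435 FPKM in the WT_0d libraries and 0.142, 0.177 and 0.552 FPKM in the PPARγ/+_0d libraries (adjusted p = 0.244), and the skeletal actin *Acta1* at 7.95, 58.6 and 5.40 FPKM in the WT_0d libraries and 4.58, 9.50 and 15.3 FPKM in the PPARγ/+_0d libraries (adjusted p = 0.700). In both genes WT_0d replicate 2 was the highest of the 6 libraries. Without WT_0d replicate 2 the median of the sarcomere genes moved from -0.78 to -0.30 and 4 genes fell, and 3 fell without PPARγ/+_0d replicate 1 or 2. *Pdlim3*, *Des* and *Tnnt2* stayed called whichever library was left out.

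The surface of the muscle cell was the other muscle group with several falls. Of 35 tested genes of fusion and the muscle surface 6 fell and none rose (median -0.13), and 3 of the 6 were subunits of the acetylcholine receptor, through which nerve excites muscle. *Chrnd*, the δ subunit, stood at 6.16, 11.8 and 4.52 FPKM in the WT_0d libraries and 0.374, 0.280 and 0.794 FPKM in the PPARγ/+_0d libraries. It fell 15.6-fold (log2 fold change -3.69 ± 0.418 (SE), adjusted p = 0.00573) with no overlap. *Chrng*, the fetal γ subunit, fell from 1.27 ± 1.20 to 0.101 ± 0.0277 FPKM (log2 fold change -2.43, adjusted p = 0.0448) and *Chrnb1*, the β subunit, from 12.8 ± 3.34 to 4.13 ± 0.582 FPKM (log2 fold change -1.59, adjusted p = 0.00623). *Cdh15*, the cadherin of myoblast contacts, stood at 34.4, 48.2 and 22.6 FPKM in the WT_0d libraries and 6.69, 5.90 and 10.5 FPKM in the PPARγ/+_0d libraries. Its fall of 4.55-fold (log2 fold change -2.15, adjusted p = 0.0107) held without each library in turn, as did those of *Chrnd* and *Chrnb1*. *Jam2*, a junctional adhesion molecule, fell from 18.8 ± 4.94 to 8.94 ± 1.12 FPKM (log2 fold change -1.04, adjusted p = 0.0214). The fusion gene *Mymk* stood at 1.57, 10.7 and 1.0 FPKM in the WT_0d libraries and 0.705, 1.45 and 2.36 FPKM in the PPARγ/+_0d libraries (adjusted p = 0.557), with groups that overlapped. The count of 6 was 3 without PPARγ/+_0d replicate 1, 2 or 3. The call of *Chrng* was lost without any single library but WT_0d replicate 2.

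**Figure D3:**
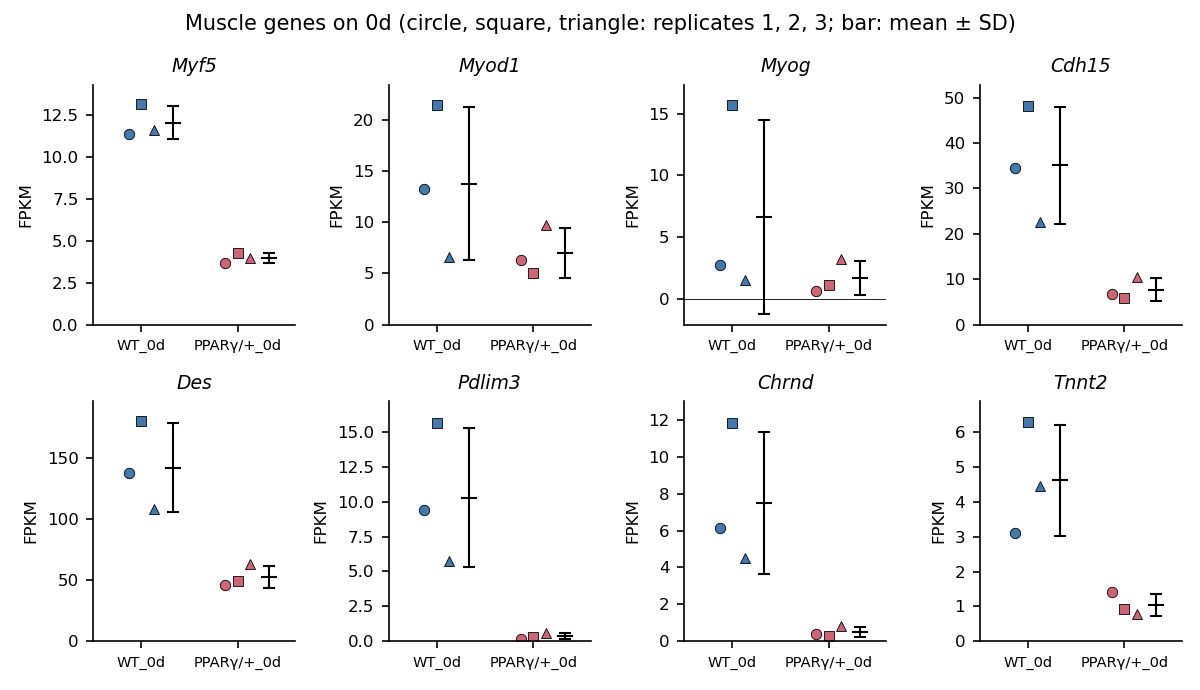
FPKM (y axis, linear) in each of the 6 libraries for 3 myogenic factors and 5 muscle genes, with WT_0d and PPARγ/+_0d along the x axis, a symbol for each replicate and a bar for the mean ± SD. *Myf5*, *Cdh15*, *Des*, *Pdlim3*, *Chrnd* and *Tnnt2* do not overlap between groups, whereas *Myod1* and *Myog* do, with WT_0d replicate 2 the highest library for *Myog*.

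The E-box CAGCTG, the sequence to which the myogenic factors are known to bind, was searched in the same RefSeq windows. It was found in 15.3% of the windows of all tested genes, 20.6% of those of risen genes and 23.2% of those of fallen genes. Fallen muscle genes whose windows hold it were *Chrng* (chr1:87205561-87205860 on the plus strand, with 2 copies), *Des* (chr1:75360042-75360341 on the plus strand, 1 copy), *Pdlim3* (chr8:45885237-45885536 on the plus strand, 1 copy) and *Tnnt2* (chr1:135836084-135836383 on the plus strand, 2 copies), and their windows are shown. Other fallen muscle genes, among them *Myf5*, *Cdh15*, *Chrnd* and *Chrnb1*, had no window or no E-box in it. The call of *Chrng* was easily lost, as given above. The AP-1 site TGAGTCA, on either strand, was found in 3.72% of all windows, 3.17% of those of risen genes and 8.54% of those of fallen genes. In the windows the E-box stands in capitals, 5′ to 3′ on the strand of the gene.
Chrng: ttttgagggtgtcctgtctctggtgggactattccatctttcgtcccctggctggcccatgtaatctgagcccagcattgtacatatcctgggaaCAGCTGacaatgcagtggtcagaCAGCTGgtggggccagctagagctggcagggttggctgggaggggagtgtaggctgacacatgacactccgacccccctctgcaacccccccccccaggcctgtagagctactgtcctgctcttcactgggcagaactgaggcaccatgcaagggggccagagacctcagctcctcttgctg
Des: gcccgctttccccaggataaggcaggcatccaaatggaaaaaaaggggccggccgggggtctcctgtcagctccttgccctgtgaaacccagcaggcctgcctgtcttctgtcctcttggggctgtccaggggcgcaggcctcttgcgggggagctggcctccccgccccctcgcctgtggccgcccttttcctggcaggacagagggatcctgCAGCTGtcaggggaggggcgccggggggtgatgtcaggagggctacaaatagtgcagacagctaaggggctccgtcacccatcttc
Pdlim3: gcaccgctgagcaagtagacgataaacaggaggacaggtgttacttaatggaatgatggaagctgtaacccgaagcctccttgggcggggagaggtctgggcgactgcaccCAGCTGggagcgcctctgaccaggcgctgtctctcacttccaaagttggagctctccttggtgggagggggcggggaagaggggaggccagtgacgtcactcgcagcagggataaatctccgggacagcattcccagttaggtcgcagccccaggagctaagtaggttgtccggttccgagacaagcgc
Tnnt2: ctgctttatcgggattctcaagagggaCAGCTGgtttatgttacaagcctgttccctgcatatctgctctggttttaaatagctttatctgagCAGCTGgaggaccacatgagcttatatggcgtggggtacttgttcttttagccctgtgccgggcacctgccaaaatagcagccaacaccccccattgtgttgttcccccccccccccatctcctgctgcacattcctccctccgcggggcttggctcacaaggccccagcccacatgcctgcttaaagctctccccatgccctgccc
The risen genes *Adipoq* and *Ogn* also hold the E-box in their windows.

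The gene with the lowest fitted log2 fold change of the named genes, *Nefl*, is best known from neurons. The fitted value understates changes of low genes. Of 38 tested neural and axon guidance genes 9 fell and 1 rose, with a median of -0.19. *Nefl* (ENSMUSG00000022055, chr14:68083863-68089095), the light chain of the neurofilament, stood at 8.27, 8.74 and 5.47 FPKM in the WT_0d libraries and 0.0606, 0.0794 and 0.149 FPKM in the PPARγ/+_0d libraries. *Nefm*, the medium chain, stood at 6.30, 6.69 and 4.94 FPKM in the WT_0d libraries and 0.184, 0.0796 and 0.317 FPKM in the PPARγ/+_0d libraries. The fall was 77.7-fold for *Nefl* (log2 fold change -5.27 ± 0.249 (SE), adjusted p = 0.000483) and 30.9-fold for *Nefm* (log2 fold change -4.44 ± 0.305 (SE), adjusted p = 0.00106), with no overlap. The annotated spans of the 2 genes overlap on chromosome 14, so fragments in the shared stretch may not be assigned to one of them with certainty. *Stmn4*, a regulator of microtubules, stood at 4.90, 3.68 and 2.86 FPKM in the WT_0d libraries and 0.150, 0.140 and 0.191 FPKM in the PPARγ/+_0d libraries (log2 fold change -3.88, adjusted p = 0.000746). *Gap43*, a growth cone protein, fell from 6.46 ± 1.87 to 0.583 ± 0.207 FPKM (log2 fold change -3.27, adjusted p = 0.00312), *Tubb3*, the neuronal β tubulin, from 45.5 ± 10.6 to 9.75 ± 2.02 FPKM (log2 fold change -2.20, adjusted p = 0.00357) and *Robo1*, the Slit receptor, from 3.05 ± 0.720 to 0.646 ± 0.254 FPKM (log2 fold change -2.12, adjusted p = 0.0114). *L1cam*, a cell adhesion molecule of axons, fell from 5.79 ± 0.923 to 2.42 ± 0.442 FPKM (log2 fold change -1.23, adjusted p = 0.00966). These 7 genes stayed called without each library in turn. Outside the rule for named genes, and chosen after their values were seen, *Ntn1* (netrin) and the ephrin receptor *Epha7* fell from 8.13 ± 1.81 to 3.75 ± 0.791 FPKM (log2 fold change -1.09, adjusted p = 0.0220) and from 0.480 ± 0.294 to 0.0333 ± 0.00495 FPKM (log2 fold change -2.0, adjusted p = 0.0303), and the semaphorin *Sema3f* rose from 1.99 ± 0.0435 to 4.42 ± 0.983 FPKM (log2 fold change 1.09, adjusted p = 0.0155). Of the 7 neuron and glia markers 3 were tested, and *Map2*, a microtubule protein of dendrites, fell from 0.713 ± 0.367 to 0.0942 ± 0.0430 FPKM (log2 fold change -2.0, adjusted p = 0.0231). Of the untested neural markers *Rbfox3* stood at 0.00591 against 0.00482 FPKM and *Snap25* at 0 in all 6 libraries.

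*Igfbp2* and *Igfbp5*, which encode binding proteins of insulin-like growth factors (IGF), were among the most abundant fallen genes. *Igfbp2* (ENSMUSG00000039323, chr1:72824503-72852474) stood at 85.0, 131 and 73.0 FPKM in the WT_0d libraries and 7.28, 13.6 and 12.7 FPKM in the PPARγ/+_0d libraries. *Igfbp5*, the gene next to it on chromosome 1, stood at 86.7, 185 and 49.5 FPKM in the WT_0d libraries and 12.6, 10.1 and 22.4 FPKM in the PPARγ/+_0d libraries. Neither overlapped between groups, and the falls were 8.62-fold (log2 fold change -3.10 ± 0.284 (SE), adjusted p = 0.00336) and 7.11-fold (log2 fold change -2.70 ± 0.479 (SE), adjusted p = 0.0224). *Pappa*, a protease that cleaves IGF binding proteins, fell from 0.347 ± 0.0304 to 0.0715 ± 0.0212 FPKM (log2 fold change -1.39, adjusted p = 0.0246). These were the 3 called genes among 15 tested on the IGF axis (median 0.07), and *Igf2*, the ligand that myoblasts make for themselves, stood at 1.0, 4.36 and 0.385 FPKM in the WT_0d libraries and 0.387, 0.771 and 1.69 FPKM in the PPARγ/+_0d libraries (adjusted p = 0.724). Only 1 of the 3 remained called without PPARγ/+_0d replicate 1 or 2 or without WT_0d replicate 1, and *Igfbp2* was called in each of these settings.

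Signals of the TGF-β, BMP and activin family were the only list beside the PPARγ targets with 5 or more rises and no fall. Of 32 tested genes 5 rose (median 0.02). *Bmp4*, a bone morphogenetic protein, stood at 25.5, 51.8 and 36.6 FPKM in the WT_0d libraries and 101, 74.7 and 96.7 FPKM in the PPARγ/+_0d libraries. *Smad6*, an inhibitor inside the cell of the same pathway, rose from 3.27 ± 0.144 to 7.59 ± 0.786 FPKM (log2 fold change 1.19, adjusted p = 0.00312). Secreted inhibitors rose as well, *Chrdl1* from 2.99 ± 1.53 to 7.81 ± 1.53 FPKM (log2 fold change 1.45, adjusted p = 0.0404) and the activin-binding *Fst* from 2.68 ± 0.987 to 5.26 ± 0.246 FPKM (log2 fold change 1.0, adjusted p = 0.0444). The rise of *Bmp4* (log2 fold change 1.30, adjusted p = 0.0274) came without overlap, and so did the others. The count was 2 without PPARγ/+_0d replicate 1 or WT_0d replicate 3, 3 without WT_0d replicate 1 and 1 without PPARγ/+_0d replicate 2 or 3, and only *Smad6* stayed called throughout.

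Wnt and Notch genes moved in both directions, with 2 rises and 3 falls among 38 tested (median 0.06). *Sfrp2*, a secreted Wnt inhibitor, stood at 84.5, 158 and 69.1 FPKM in the WT_0d libraries and 486, 391 and 489 FPKM in the PPARγ/+_0d libraries. It was among the most abundant of the risen genes and rose 4.39-fold (log2 fold change 2.22 ± 0.282 (SE), adjusted p = 0.00819), with no overlap and in every leave-one-out fit. *Dkk3*, of the Dickkopf family of Wnt inhibitors, rose from 3.18 ± 1.15 to 6.61 ± 0.506 FPKM (log2 fold change 1.09, adjusted p = 0.0429). *Wnt7b*, a Wnt ligand, stood at 1.51, 1.99 and 1.12 FPKM in the WT_0d libraries and 0.0279, 0.0435 and 0.0208 FPKM in the PPARγ/+_0d libraries. It fell 50.1-fold (log2 fold change -3.62, adjusted p = 0.00125). The Notch receptor *Notch3* fell from 11.1 ± 1.41 to 3.65 ± 0.698 FPKM (log2 fold change -1.60, adjusted p = 0.00444) and the ligand *Jag2* from 7.84 ± 1.09 to 3.23 ± 1.06 FPKM (log2 fold change -1.29, adjusted p = 0.0214), beside the Notch-responsive *Heyl* and *Hes1* given above. The call of *Dkk3* was lost in 12 of the 16 alternatives, and of the 2 rises 1 was left without WT_0d replicate 1 or 3 or PPARγ/+_0d replicate 2 or 3.

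Growth factors and their receptors had 8 falls and 1 rise among 34 tested (median -0.03). *Ngfr*, the low-affinity receptor of nerve growth factor, stood at 0.913, 1.09 and 1.04 FPKM in the WT_0d libraries and 0, 0 and 0 FPKM in the PPARγ/+_0d libraries. It had 239 fragments in the WT_0d group and none in the PPARγ/+_0d group, so that against a floor of 3 fragments over the group it was at least 85.0-fold lower (log2 fold change -3.48, adjusted p = 0.000846, a fitted value that depends on the pseudocount). Among ligands of the platelet-derived growth factor (PDGF) family *Pdgfb* fell from 1.38 ± 0.438 to 0.101 ± 0.0580 FPKM (log2 fold change -2.89, adjusted p = 0.00507), *Pdgfd* from 1.77 ± 0.878 to 0.334 ± 0.0464 FPKM (log2 fold change -2.01, adjusted p = 0.0162) and *Pdgfc* from 5.90 ± 0.743 to 2.54 ± 0.204 FPKM (log2 fold change -1.18, adjusted p = 0.00478). *Erbb3*, a neuregulin receptor, fell from 0.916 ± 0.301 to 0.102 ± 0.0290 FPKM (log2 fold change -2.30, adjusted p = 0.00797) and *Flt1*, a receptor of vascular endothelial growth factor, from 0.554 ± 0.134 to 0.13 ± 0.0313 FPKM (log2 fold change -1.5, adjusted p = 0.0206). *Fgf5*, with 3 fragments left in PPARγ/+_0d against 58, differed by a ratio of 20.6 (exact 95% counting interval 6.72 to 103, log2 fold change -1.87, adjusted p = 0.0179). The last fall was that of *Hbegf*, a ligand of the EGF receptor, from 7.37 ± 1.12 to 3.47 ± 0.389 FPKM (log2 fold change -1.06, adjusted p = 0.00905), and the rise was that of the FGF receptor *Fgfr2*, from 1.58 ± 0.0921 to 3.43 ± 0.188 FPKM (log2 fold change 1.07, adjusted p = 0.00472). *Pdgfc*, *Hbegf* and *Fgfr2* lie outside the rule for named genes and were chosen after their values were seen. The count of 8 was 4 without PPARγ/+_0d replicate 2 and 5 without WT_0d replicate 2, and *Ngfr*, *Pdgfb* and *Erbb3* were called throughout. Of 25 tested chemokines and cytokines 2 fell, *Ackr3*, a scavenger receptor of the chemokine CXCL12, from 12 ± 4.43 to 2.23 ± 0.549 FPKM (log2 fold change -2.34, adjusted p = 0.00687) and *Lif*, the cytokine also present in the medium, from 1.17 ± 0.208 to 0.479 ± 0.139 FPKM (log2 fold change -1.14, adjusted p = 0.0357). The call of *Lif* was lost without any single library but PPARγ/+_0d replicate 3, and 1 gene of this list fell without WT_0d replicate 2 or 3 or PPARγ/+_0d replicate 1 or 2.

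Genes that respond quickly to growth signals had falls only. Of 25 tested immediate early and AP-1 genes 6 fell and none rose, and 21 had a negative log2 fold change, with a median of -0.41. *Atf3*, a stress-induced transcription factor, stood at 4.64, 3.98 and 2.95 FPKM in the WT_0d libraries and 0.799, 0.979 and 0.914 FPKM in the PPARγ/+_0d libraries (log2 fold change -1.97, adjusted p = 0.00366), with no overlap. The zinc finger factors *Egr3* and *Egr2* fell from 5.65 ± 0.837 to 2.01 ± 0.483 FPKM (log2 fold change -1.46, adjusted p = 0.00844) and from 4.72 ± 0.457 to 2.02 ± 0.422 FPKM (log2 fold change -1.20, adjusted p = 0.0109). *Dusp4* and *Dusp6*, phosphatases that act on the MAP kinases, fell from 34.2 ± 4.47 to 16.4 ± 3.08 FPKM (log2 fold change -1.07, adjusted p = 0.0102) and from 13.7 ± 0.728 to 6.82 ± 1.66 FPKM (log2 fold change -1.03, adjusted p = 0.0186), and *Creb5*, a partner of the AP-1 factors, from 0.690 ± 0.0798 to 0.142 ± 0.0285 FPKM (log2 fold change -1.71, adjusted p = 0.00895). *Fos* stood at 3.09 against 2.62 FPKM (adjusted p = 0.295) and was not called. The count of 6 was 4 without PPARγ/+_0d replicate 2 and 3 with a pseudocount of 1 FPKM. *Dusp6* lost its call without WT_0d replicate 2 or 3 or PPARγ/+_0d replicate 2 or 3. *Dusp4* lost its call without WT_0d replicate 1 or PPARγ/+_0d replicate 2.

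The extracellular matrix had calls in both directions, with 3 rises and 4 falls among 37 tested matrix proteins (median 0.04). The rises were those of small leucine-rich proteoglycans. *Omd*, osteomodulin, stood at 6.66, 9.89 and 8.33 FPKM in the WT_0d libraries and 27.4, 61.7 and 51.7 FPKM in the PPARγ/+_0d libraries (log2 fold change 2.42 ± 0.293 (SE), adjusted p = 0.00678). *Ogn*, osteoglycin, the neighbour of *Omd* on chromosome 13, rose from 146 ± 28.6 to 350.3 ± 95.7 FPKM (log2 fold change 1.24, adjusted p = 0.0273), and *Fmod*, fibromodulin, from 2.80 ± 1.06 to 12.5 ± 2.45 FPKM (log2 fold change 2.17, adjusted p = 0.00753). *Spp1*, osteopontin, the most abundant called gene of the list, stood at 717, 1001 and 993 FPKM in the WT_0d libraries and 440.4, 333 and 364 FPKM in the PPARγ/+_0d libraries (log2 fold change -1.25 ± 0.166 (SE), adjusted p = 0.00966). No library of one group reached the other for any of these 4 genes. *Ogn* lies outside the rule for named genes and was chosen after its values were seen. The 3 rises were 2, *Omd* and *Fmod*, without WT_0d replicate 1 or 3 or PPARγ/+_0d replicate 2 or 3. *Tnc*, tenascin C, fell from 27.7 ± 4.62 to 9.82 ± 2.52 FPKM (log2 fold change -1.51, adjusted p = 0.00973), *Loxl2*, a lysyl oxidase that crosslinks collagen, from 4.25 ± 0.804 to 1.19 ± 0.282 FPKM (log2 fold change -1.76, adjusted p = 0.00623) and *Postn*, periostin, from 2.84 ± 2.01 to 0.429 ± 0.258 FPKM (log2 fold change -2.40, adjusted p = 0.0482), the last called only with all 6 libraries.

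Collagens were divided in the same way, 2 risen and 2 fallen of 31 tested (median 0.32). *Col1a1*, the main chain of type I collagen, stood at 65.2, 52.7 and 76.0 FPKM in the WT_0d libraries and 10.2, 24.1 and 23 FPKM in the PPARγ/+_0d libraries (log2 fold change -1.83, adjusted p = 0.0207), while its partner chain *Col1a2* stood at 153 against 137 FPKM (adjusted p = 0.443). The fall of *Col1a1* lost its call without WT_0d replicate 1 or 3. *Col18a1*, of basement membranes, fell from 23.8 ± 5.14 to 10.2 ± 1.20 FPKM (log2 fold change -1.19, adjusted p = 0.00934), and *Col8a2* and *Col27a1* rose from 0.399 ± 0.274 to 2.08 ± 0.833 FPKM (log2 fold change 2.18, adjusted p = 0.0303) and from 0.461 ± 0.218 to 1.56 ± 0.470 FPKM (log2 fold change 1.6, adjusted p = 0.0351). No collagen was called as risen without PPARγ/+_0d replicate 2 or 3 or without WT_0d replicate 1 or 3. Among 38 proteases and inhibitors 2 rose and 4 fell (median 0.01). *Plau*, the urokinase plasminogen activator, fell from 29.7 ± 7.80 to 8.46 ± 1.17 FPKM (log2 fold change -1.77, adjusted p = 0.00507), *Serpinb2*, an inhibitor of urokinase, from 1.94 ± 0.663 to 0.548 ± 0.168 FPKM (log2 fold change -1.64, adjusted p = 0.0220), and the metalloproteases *Adam8* and *Adamts6* from 4.75 ± 0.860 to 2.14 ± 0.543 FPKM and from 2.98 ± 0.0976 to 1.33 ± 0.134 FPKM (adjusted p = 0.0267 and 0.00573). *Mmp23* rose from 0.703 ± 0.232 to 1.62 ± 0.152 FPKM (log2 fold change 1.14, adjusted p = 0.0336) and the granzyme *Gzmd*, with 1 fragment in WT_0d and 19 in PPARγ/+_0d, by a ratio of 17.8 (exact 95% counting interval 2.83 to 739.9, log2 fold change 1.73, adjusted p = 0.0231). The 4 falls of this list were 2 without PPARγ/+_0d replicate 2 or 3 or WT_0d replicate 2 or 3, and *Plau* and *Adamts6* stayed called throughout. Its 2 rises were 0 without WT_0d replicate 1 or PPARγ/+_0d replicate 2 or 3 and with a pseudocount of 1 FPKM, and 1 without any other library.

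Integrins and laminins fell in 5 of 22 tested genes and none rose (median -0.23). *Itga7*, the laminin receptor of muscle, fell from 89.8 ± 29.4 to 42.8 ± 7.83 FPKM (log2 fold change -1.03, adjusted p = 0.0474), *Itgb7* from 8.23 ± 2.37 to 2.52 ± 0.862 FPKM (log2 fold change -1.68, adjusted p = 0.0155) and *Itgb8* from 0.380 ± 0.0470 to 0.104 ± 0.0322 FPKM (log2 fold change -1.24, adjusted p = 0.0356). The laminin chain *Lamb3* fell from 1.58 ± 0.139 to 0.329 ± 0.0406 FPKM (log2 fold change -1.97, adjusted p = 0.00312) and kept its call without each library in turn. The call of *Itga7* was lost in 12 of the 16 alternatives, among them all leave-one-out fits but that without WT_0d replicate 3, and that of *Itgb8* in all 6 leave-one-out fits. The count was 3 without PPARγ/+_0d replicate 1 or WT_0d replicate 2 and 2 without PPARγ/+_0d replicate 2 or 3.

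In the cell cycle few genes passed the test, but the genes of DNA replication lay to the lower side. Of 42 tested replication genes 39 had a negative log2 fold change (median -0.36) and 1 fell, *Cdc6*, which loads the replicative helicase, from 5.51 ± 1.43 to 2.64 ± 0.609 FPKM (log2 fold change -1.03, adjusted p = 0.0382). Its call was lost without WT_0d replicate 2 or 3 or PPARγ/+_0d replicate 2 or 3, which left 0 replication genes called, and 2 were called without WT_0d replicate 1 or PPARγ/+_0d replicate 1. *Mcm5*, a subunit of that helicase, stood at 38.6 against 25.3 FPKM (adjusted p = 0.128). Of 48 tested mitosis genes none was called (median -0.06), and the proliferation marker *Mki67* stood at 50.1 against 48.7 FPKM (adjusted p = 0.902). Of 34 genes of cell cycle arrest and p53 none was called (median 0.25), and *Cdkn1a*, the inhibitor p21, stood at 71.4 against 80.5 FPKM (adjusted p = 0.588).

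In metabolism the sterol and fatty acid synthesis genes lay to the lower side with no call, 28 of 29 at a negative log2 fold change (median -0.42). *Hmgcs1*, of cholesterol synthesis, stood at 49.2 against 34.3 FPKM (adjusted p = 0.138). Of 26 glucose genes 1 fell, the hexokinase *Hk2*, from 8.02 ± 0.318 to 3.81 ± 0.429 FPKM (log2 fold change -1.06, adjusted p = 0.00450, median of the list -0.19), a call lost without PPARγ/+_0d replicate 2. None of 35 tested nuclear genes of the respiratory chain was called (median -0.07).

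Among the remaining lists, 1 of 43 interferon and antigen presentation genes fell, *Ifitm1*, from 4.59 ± 1.74 to 1.33 ± 0.515 FPKM (log2 fold change -1.72, adjusted p = 0.0303, a call lost without WT_0d replicate 1 or 3 or PPARγ/+_0d replicate 2 or 3), while 35 of the 43 had a positive log2 fold change (median 0.33). None of 26 genes of amino acid and endoplasmic reticulum stress was called (median 0.07). None of 22 tested Hox genes was called either, although 21 of them had a positive log2 fold change (median 0.40). Of 13 tested imprinted growth genes 1 fell. This was *Peg3*, a paternally expressed zinc finger gene, at 10.2, 14.5 and 10.5 FPKM in the WT_0d libraries and 1.99, 1.07 and 2.75 FPKM in the PPARγ/+_0d libraries (log2 fold change -2.61 ± 0.313 (SE), adjusted p = 0.00659), with no overlap. The imprinted RNA *H19* stood at 106, 269.8 and 58.3 FPKM in the WT_0d libraries and 25.2, 25.2 and 53.7 FPKM in the PPARγ/+_0d libraries and was not called (adjusted p = 0.0940). Of 3 tested members of the prolactin family 1 rose, *Prl2c3*, a proliferin, at 131, 72.9 and 144 FPKM in the WT_0d libraries and 425, 449 and 514 FPKM in the PPARγ/+_0d libraries (log2 fold change 2.05 ± 0.242 (SE), adjusted p = 0.00623). Its near-identical paralogs may share fragments with it, so the split between them is uncertain.

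**Figure D4:**
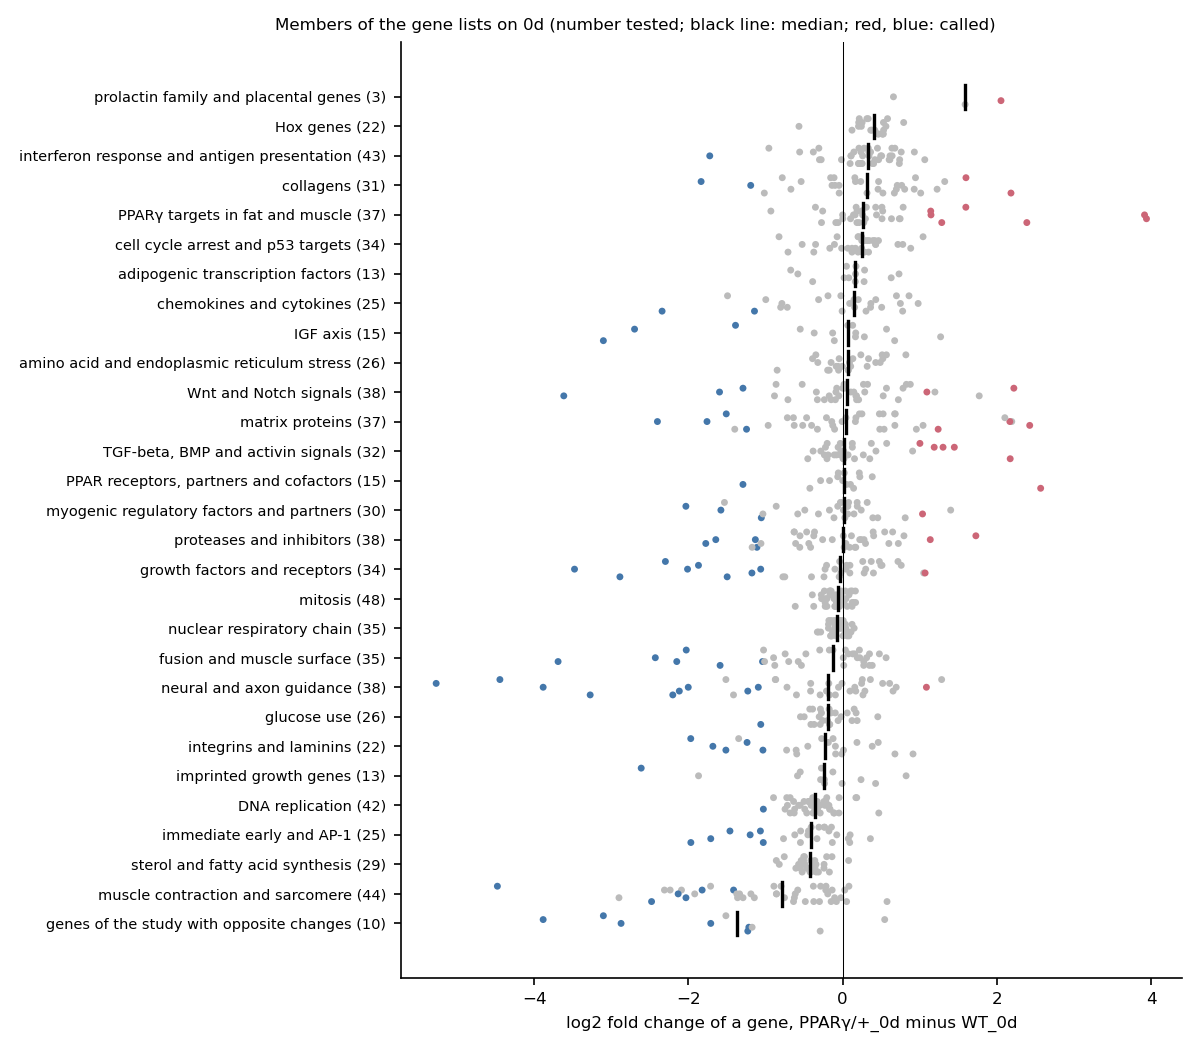
For each gene list, the log2 fold changes of its tested members (points, PPARγ/+_0d minus WT_0d) on the x axis with the median of the list (black bar) and called genes in colour, and the number of tested members after each list name. The sarcomere list has the median of -0.78, and called genes of the PPARγ target list lie to the positive side.

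Other genes stood among the 12 largest rises or falls by fitted log2 fold change without belonging to a list. *Serpinb9e*, an inhibitor of serine proteases, had the highest fitted log2 fold change of the named genes, at 0.403, 0.227 and 0.405 FPKM in the WT_0d libraries and 11.8, 8.13 and 11.4 FPKM in the PPARγ/+_0d libraries (log2 fold change 4.58 ± 0.225 (SE), adjusted p = 0.000483). *Serpinb9g* rose from 0.111 ± 0.0834 to 1.96 ± 0.439 FPKM (log2 fold change 3.35, adjusted p = 0.00454), and how fragments divide between these paralogs is uncertain. The acute phase gene *Orm2* rose from 0.218 ± 0.166 to 1.10 ± 0.0853 FPKM (log2 fold change 2.04, adjusted p = 0.0199), with a call that was lost without each library except WT_0d replicate 2. *Zim1*, an imprinted zinc finger gene beside *Peg3*, stood at 2.15, 3.99 and 2.48 FPKM in the WT_0d libraries and 0.274, 0.0955 and 0.294 FPKM in the PPARγ/+_0d libraries (log2 fold change -3.23, adjusted p = 0.00472). *Dync1i1*, a dynein intermediate chain, fell from 2.0 ± 0.573 to 0.150 ± 0.104 FPKM (log2 fold change -3.13, adjusted p = 0.00749). The small nucleolar RNA *Snord59a* had 8 fragments in WT_0d and none in PPARγ/+_0d, which is at least 2.85-fold lower against the floor of 3 fragments over the group. Its fold thus rests on few fragments.

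Some called genes lay beside one another on the chromosome. Within 100 kb of each other there were 31 pairs of called genes, formed by 58 genes, and 28 of the 31 had the same direction. Leaving out pairs whose annotated spans overlap, 25 of 28 had the same direction. Of all possible pairs of the called genes 61.4% share a direction, because most calls were falls. *Igfbp2* and *Igfbp5* lie 5458 bp apart on chromosome 1, *Chrnd* and *Chrng* 4587 bp apart on the same chromosome, *Zim1* and *Peg3* 7442 bp apart on chromosome 7, and *Omd* and *Ogn* 15224 bp apart on chromosome 13. In the first 3 pairs both genes fell, and in the last both rose. Among the pairs with opposite directions *Id3* rose and *E2f2*, a transcription factor of the cell cycle, fell (5.12 to 1.20 FPKM) at a distance of 26639 bp. Several pairs are paralogs with similar sequences, *Gsta1* and *Gsta2* among them, whose fragments the counting may have split between copies.

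On 5d the same comparison, PPARγ/+_5d against WT_5d, rests on 6 other libraries. It called 23 genes as higher (0.138% of 16662 tested) and 14 as lower (0.084%). Of the 94 genes risen on 0d, 89 were tested on 5d, 82 of these again had a positive log2 fold change (92.1%, where 55.1% of all genes did) with a median of 0.75, and 10 were called as higher. These 10 were 10.6% of the rises on 0d and 43.5% of those on 5d, *Adipoq*, *Angptl4*, *Fabp4*, *Fam183b*, *Parm1*, *Pparg*, *Prl2c3*, *Rgs4*, *Sprr1a* and *Sprr1b*. Of the 267 genes fallen on 0d, 248 were tested, 202 again had a negative log2 fold change (81.5%, where 44.9% of all genes did) with a median of -0.47, and none was called as lower. WT_5d replicate 3 correlated with the other WT_5d libraries at 0.959 and 0.967, where these correlated with each other at 0.978. WT_5d replicate 3 correlated more closely with the PPARγ/+_5d libraries, at 0.973, 0.973 and 0.969, where the other WT_5d libraries did so at 0.954 to 0.967. Without it, a choice made after seeing the data, 785 genes were called on 5d, and 37 of the 94 rises (39.4% of them, and 13.5% of 274 on 5d) and 77 of the 267 falls (28.8% of them, and 15.1% of 511 on 5d) were called in the same direction, and 1 rise and 2 falls in the opposite one.

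*Pparg* stood at 3.75 ± 0.760 FPKM in WT_5d and 58.9 ± 29.3 FPKM in PPARγ/+_5d (3.85 on the log2 scale, adjusted p = 0.0212). *Fabp4* stood at 0.0204 ± 0.0106 FPKM in WT_5d and 6.44 ± 3.39 FPKM in PPARγ/+_5d (5.65, adjusted p = 0.00607) and *Adipoq* at 0.00948 ± 0.0164 FPKM in WT_5d and 20.4 ± 17.6 FPKM in PPARγ/+_5d (7.22, adjusted p = 0.0151). These 3 were thus higher in PPARγ/+ on both days. *Myf5*, by contrast, stood at 4.43 ± 1.33 FPKM in WT_5d and 6.78 ± 1.51 FPKM in PPARγ/+_5d (0.62, adjusted p = 0.342) and *Igfbp2* at 29.9 ± 0.418 FPKM in WT_5d and 21.5 ± 3.46 FPKM in PPARγ/+_5d (-0.49, adjusted p = 0.168), and neither was called on 5d.

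**Figure D5:**
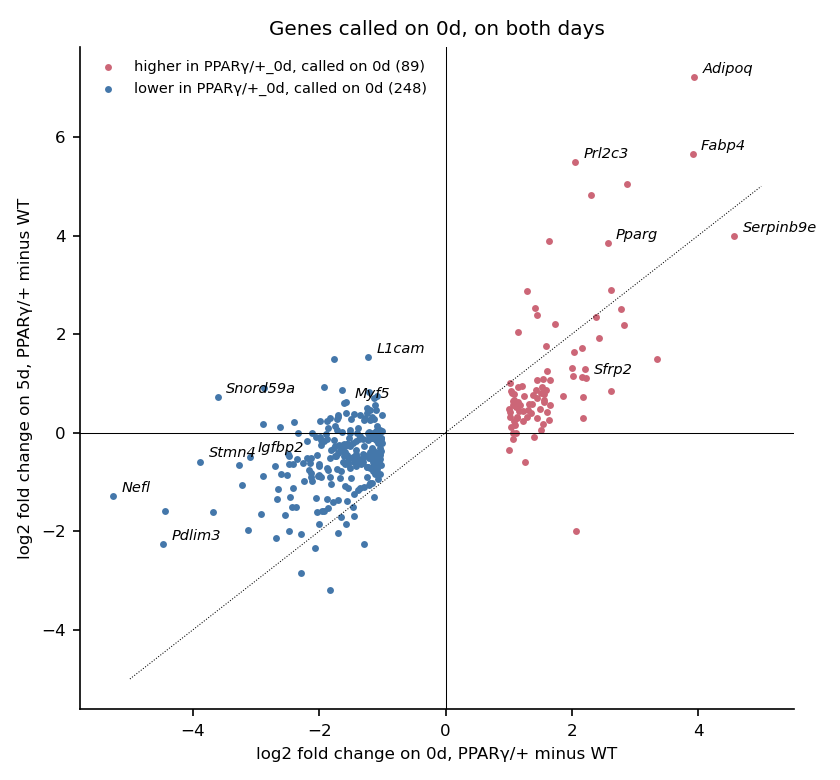
Log2 fold change of PPARγ/+ minus WT on 0d (x axis) against that on 5d (y axis), which come from different libraries, for the genes called on 0d and tested on 5d, risen and fallen ones in separate colours. Of the risen genes tested on 5d 82 of 89 lie above 0 on the y axis, and of the fallen genes 202 of 248 lie below 0.

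The study singled out 11 genes for opposite changes over time in the 2 cell types, a choice made on these same libraries, so that their values here are no independent evidence of a direction. On 0d 10 of them were tested, 6 fell and none rose (median -1.37). *Stmn4*, *L1cam*, *Igfbp2* and *Creb5* were given above. The urea transporter *Slc14a1* had 186 fragments in WT_0d and 1 in PPARγ/+_0d, a ratio of 198 (exact 95% counting interval 35.2 to 7880.0, log2 fold change -2.87, adjusted p = 0.00450), and *Clca3b*, named after chloride channel regulators, fell from 0.286 ± 0.0473 to 0.0656 ± 0.0157 FPKM (log2 fold change -1.22, adjusted p = 0.0419). The call of *Clca3b* was lost whichever library was left out. *Tenm4*, a teneurin, stood at 0.254 against 0.0146 FPKM (adjusted p = 0.0754), the carbonic anhydrase *Car12* at 0.129 against 0.0886 FPKM (adjusted p = 0.656), the stromelysin *Mmp10* at 0.893 against 0.323 FPKM (adjusted p = 0.157) and the granzyme *Gzme* at 0.623 against 0.929 FPKM (adjusted p = 0.350).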

How the data were processed

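RNA-seq of C2C12 cells was analysed from the authors' table of deposited FPKM values for 46983 Ensembl genes. Per the labels RNA was extracted with Trizol and made into TruSeq libraries, and per the study's methods the authors trimmed with Trim Galore, aligned with STAR (without a version in the submitters' notes), counted with HTSeq and divided by gene length and mapped fragments. Strand handling was not given in the sources used here. The submitters' notes name mm9 and the methods GRCm38. Exon lengths of GRCm38 turned the FPKM values of 21058 of 27138 expressed genes into whole fragments (within 0.001 of a fragment), and the lengths of the other 6080 were inferred, so coordinates are GRCm38. The table gives no depth of its own, and the fragment totals come from this recovery. A second deposited table holds log2 values equal to log2(FPKM + 1) and was read only for this comparison.

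Groups came from the labels. Genes at 0.1 FPKM or more in at least 3 of the 6 libraries of 0d were tested on log2(FPKM + 0.1), a scale that understates changes of low genes, with limma 3.58.1 (trend) in R 4.3.3, two-sided, and called at a Benjamini-Hochberg adjusted p of at most 0.05 and a 2-fold change. *Pparg*, *Myod1* and *Myog* also had an exact permutation test (scipy 1.17.1). On simulated data over 16254 genes for this comparison 96% of 200 changed genes and 12 unchanged ones were called. The changed genes were drawn only from well-covered genes and given set changes, with the same spread for every gene. These values therefore give no error rates for weakly expressed genes or for the real spread between the libraries. Named are *Pparg*, *Myod1* and *Myog*, the 12 largest rises and falls by fitted log2 fold change whose higher mean reached 1 FPKM and whose libraries did not overlap (predicted genes left out), up to 6 called members of each of 38 lists by size of change, the 11 genes chosen by the study, and uncalled defining members. A few named genes are not reported here. The members and lists were chosen with earlier results of these data known. Of the symbols listed, 1065 of 1070 were in the table and 845 tested. Promoter windows are from RefSeq (GRCm38.p6). Alternatives were other pseudocounts, filters and scalings, voom on the recovered fragments, a replicate block, all 12 libraries in one fit and leaving out each library. No 2 libraries of 0d held identical values.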

Additional observations from a re-analysis of the deposited data

Results flagged for a closer look

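For 18 of the 101 named genes the difference between PPARγ/+ and WT on 5d differed from that on 0d, tested as a cell type by day interaction with limma over all 12 libraries (adjusted p between 0.00135 and 0.0486). All 18 passed also without WT_5d replicate 3, a setting chosen after seeing the data. Over all 16254 genes, 128 passed this test with all libraries and 408 without WT_5d replicate 3. Each value below is the log2 fold change on 5d minus that on 0d.

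Of the 18, 16 were genes that lay lower in PPARγ/+_0d than in WT_0d by the call or by value (*Mmp10*), and all of these had a positive interaction, so that the log2 fold change was higher on 5d than on 0d. Most of them were named for a large or called fall on 0d, and the interaction uses those same 0d values, so the choice of genes itself favours a positive interaction and a share above that of all genes. For the neural genes the values were 3.98 for *Nefl*, 2.85 for *Nefm*, 3.30 for *Stmn4* and 2.77 for *L1cam*. On 5d *Nefl* stood at 0.158 FPKM in WT_5d and 0.00459 FPKM in PPARγ/+_5d. *Nefm* stood at 0.270 FPKM in WT_5d and 0.0199 FPKM in PPARγ/+_5d, so both means were still lower in PPARγ/+_5d. These levels lie near or below the pseudocount of 0.1 FPKM. The fitted 5d differences of *Nefl* and *Nefm* are therefore understated, and their interactions depend on the pseudocount. *L1cam* had log2 fold changes of -1.23 on 0d and 1.54 on 5d. The myogenic factor *Myf5* had 2.20, from -1.58 on 0d to 0.62 on 5d, and the IGF binding protein gene *Igfbp2* had 2.61. Among growth factor and chemokine receptors *Ngfr* had 3.37, *Flt1* 1.77 and *Ackr3* 2.33. *Ngfr*, and *Slc14a1* and *Clca3b* below, did not pass the 0.1 FPKM filter on 5d and were not tested there. The interactions of these genes thus set the 0d difference against 5d levels near or below that filter. Osteopontin *Spp1* had 1.64, *Serpinb2* 2.51 and *Creb5* 2.03.

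The small nucleolar RNA *Snord59a* had 4.34, resting on 8 fragments in WT_0d, *Slc14a1* had 2.62 and *Clca3b* 2.25. *Mmp10* had 3.45, from -1.17 on 0d to 2.27 on 5d. The last 3, with *Stmn4*, *L1cam*, *Igfbp2*, *Creb5* and *Gzme*, belong to the 11 genes that the study chose on these libraries for opposite changes, so that an interaction is no independent evidence for them.

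The other two genes had a positive log2 fold change on both days, larger on 5d. *Prl2c3* had an interaction of 3.43, from 2.05 on 0d to 5.49 on 5d, and *Gzme* had 3.73, from 0.54 to 4.28. Near-identical paralogs of both genes may share fragments with them.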

How the results depend on the processing

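Against 361 called genes (94 risen, 267 fallen, 97 members of the lists), a pseudocount of 1 FPKM called 142 (31 risen, 111 fallen, 53 list members), no filter on low values called 60 as risen, and voom on the recovered fragments called 144 as risen. Between 192 and 326 genes (37 to 99 risen, 148 to 227 fallen, 52 to 83 list members) were called when single libraries were left out. The largest losses came without PPARγ/+_0d replicate 2 (192 called, 44 risen, 148 fallen, 52 list members) and PPARγ/+_0d replicate 3 (217 called, 37 risen, 60 list members). Without WT_0d replicate 2 161 genes fell and without WT_0d replicate 3 62 rose. In the fit that left out a replicate of one group the other 5 libraries shared one estimate of spread. The share of falls among the calls ran from 61.9% without WT_0d replicate 2 to 82.9% without PPARγ/+_0d replicate 3, beside 74% with all 6. The other filters, scalings and the fit of all 12 libraries kept these counts within 1.5 times. The cause of these changes was not tested.

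With the replicate number as a block 175 genes were called (47 risen, 128 fallen, 57 list members), but same-numbered libraries did not deviate together (correlations -0.036, -0.037 and -0.097), so the numbers do not pair the libraries. Of the 361 calls 82 (15 risen, 67 fallen) were called in every alternative. Of the 101 named genes 42 stayed on the same side of the threshold in all 16 alternatives, or in those that tested them, and none changed direction. *Pparg*, *Myod1* and *Myog* stayed on the same side in all of them. On 5d, 37 genes were called with all libraries and 785 without WT_5d replicate 3.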

Other observations

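Further called genes outside the lists, chosen after their values were seen, are given here by what they encode. The high mobility group genes *Hmga1* and *Hmga2*, chromatin proteins of dividing precursor cells, fell from 64.7 ± 0.964 to 19.2 ± 2.69 FPKM and from 22.2 ± 4.23 to 7.75 ± 1.49 FPKM (adjusted p = 0.000746 and 0.00623), and *Hmga1b*, a near-identical copy of *Hmga1*, from 70.3 ± 1.44 to 21.7 ± 3.13 FPKM. *Igf2bp2*, an RNA-binding protein of IGF transcripts, fell from 5.72 ± 1.12 to 2.16 ± 0.728 FPKM (adjusted p = 0.0289). Of cell cycle genes that no list held, *E2f2* fell from 5.12 ± 1.19 to 1.20 ± 0.275 FPKM and *Ccne1*, cyclin E1, from 8.15 ± 1.25 to 3.93 ± 0.816 FPKM (adjusted p = 0.00472 and 0.0162). Abundant cytoskeletal genes fell too, with *Nes*, the intermediate filament nestin of precursor cells, from 105 ± 14.6 to 37.0 ± 3.0 FPKM (adjusted p = 0.00138), *Tubb2b*, a β tubulin, from 89.4 ± 6.27 to 37.5 ± 3.24 FPKM (adjusted p = 0.00115) and *Basp1*, a growth cone protein, from 97.2 ± 6.10 to 41.3 ± 2.77 FPKM (adjusted p = 0.000846). *Myl9*, a regulatory myosin light chain of smooth muscle, fell from 43.4 ± 11.5 to 19.8 ± 5.94 FPKM (adjusted p = 0.0432).

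Risen genes outside the lists included the cornified envelope genes *Sprr1a*, from 13.2 ± 1.21 to 41.6 ± 4.47 FPKM (adjusted p = 0.000771), *Sprr1b* and *Lce1g*, the last from 1.99 ± 0.848 to 6.33 ± 1.96 FPKM (adjusted p = 0.0266), although of 9 epithelial markers 3 were tested and none was called. *Gas6*, the secreted ligand of the TAM receptors, rose from 19.6 ± 5.09 to 70.3 ± 9.18 FPKM (adjusted p = 0.00472), *Tlr2*, a receptor of bacterial lipoproteins, from 7.60 ± 0.331 to 20.8 ± 2.43 FPKM (adjusted p = 0.00106) and *Npnt*, nephronectin, a matrix ligand of integrins, from 40.2 ± 11.1 to 96.0 ± 26.4 FPKM (adjusted p = 0.0304).

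The mast cell tryptase *Tpsab1* had one of the largest differences without a call. It stood at 6.89, 0.303 and 0.248 FPKM in the WT_0d libraries and 21.8, 14.3 and 16.9 FPKM in the PPARγ/+_0d libraries, with the libraries of the groups apart and WT_0d replicate 1 well above the other 2 of its group (log2 fold change 4.14, adjusted p = 0.0645).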
